A study of Mus musculus with 30 samples.

Results

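The 10 immediate early response genes were followed across the study's cultured adipocytes, chosen by name as Fos, Fosb, Jun, Junb, Jund, Egr1, Ier2, Ier3, Klf6 and Atf3. All 10 of 10 were found by symbol among the 54232 genes of the count table, and all 10 were among the 20139 genes with more than 14 counts over the 30 libraries that were tested. RNA came from mouse 3T3-L1 preadipocytes, an established line, carried in adipogenic medium with insulin, dexamethasone, isobutylmethylxanthine and indomethacin, which every group shared. The 6 groups of 5 libraries were Control, pNaKtide (0.7 µM), IS (indoxyl sulphate, 100 µM), IS + pNaKtide, oxLDL (50 µg/mL) and oxLDL + pNaKtide, and the labels give 5 days of treatment, while the study's methods give a shorter exposure. The labels name 3T3 cells as the source, although their RNA extraction text speaks of adipose tissue, and they do not say whether replicates were separate cultures, so that p-values measure the spread between these libraries. Indoxyl sulphate is a uremic toxin, oxLDL is oxidized low density lipoprotein, and pNaKtide is a cell-permeant peptide made to block the signaling of the Na,K-ATPase through the Src kinase. The comparisons ask whether either oxidant changed a gene and whether the peptide changed it with and without the oxidant.

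Immediate early genes are transcribed within minutes of a growth factor, cytokine or stress signal from factors that already lie on their promoters, without new protein synthesis. Their RNA is usually short-lived, so that the level falls back within hours, and libraries made after days of treatment measure a late level. The study's methods describe treatment repeated each day. Whether the medium or the last dose kept a level up was not tested. Fos, Fosb, Jun, Junb and Jund are the basic leucine zipper subunits of the AP-1 transcription factor, Egr1 is a zinc finger factor of the serum response, and in 3T3-L1 cells the adipogenic cocktail itself is known to induce several of them early in differentiation.

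The levels of some of the 10 genes moved with the base composition of the libraries, so the sequences are shown first. Jund has the most GC-rich transcript of the 10, with 67.1% G and C over 1668 bases, above 99.6% of the genes tested, and Klf6 the least, with 42.4% over 4225 bases, above 13.9% of them. The first 120 coding bases of Jund (GENCODE vM21, build GRCm38) held 73.3% G and C, which are in capitals.
Jund, transcript bases 110 to 229: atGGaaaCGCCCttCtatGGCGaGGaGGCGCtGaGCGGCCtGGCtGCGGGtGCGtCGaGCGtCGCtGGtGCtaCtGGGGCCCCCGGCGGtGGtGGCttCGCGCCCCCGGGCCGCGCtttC
Klf6 carried its low share mainly in a long 3′ untranslated region, with 38.7% G and C over 3111 bases against 51.0% in its coding bases, while Jund had 57.6% over 533 bases and 70.6% in its coding bases.

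The AU-rich pentamer ATTTA, a part of elements linked to fast decay, was found in the 3′ untranslated region of 9 of the 10 genes and of 64.6% of 13545 tested coding genes with such a region, and Ier2 held none. The longer TATTTAT was found in 7 of 10 (70.0%) against 26.4% of all. The median density of ATTTA was 2.39 per kilobase in the 10 genes and 1.16 over all, and Ier3 held 5 copies in 613 bases while Klf6 held 7 in 3111. These counts are on the sense strand, each TATTTAT also holds an ATTTA, and a match is a description of letters. For 5 of the genes the 30 bases around the first TATTTAT, in capitals, are printed because this class is known for AU-rich elements. Decay was not measured here.
Fos, transcript bases 1938 to 1967: tgttttcaattTATTTATtaagatggattc
Jun, transcript bases 3116 to 3145: ttgcttgtgcaTATTTATaatagcgttcgt
Jund, transcript bases 1411 to 1440: cgattccgcccTATTTATgtttctactcgg
Ier3, transcript bases 689 to 718: tgtctaattaaTATTTATgTATTTATgtat
Atf3, transcript bases 1914 to 1943: aaaatattactTATTTATcccagtattcct

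Promoter windows of RefSeq (GRCm38.p6) matched 8 of the 10 genes, all but Egr1 and Ier2. The Jund window lies ahead of the GENCODE start by more than its own length and was left out, so 7 were searched over the 200 bases before the start, on both strands. The Atf3 window was kept, although its RefSeq start, 191183333, lies inside the gene, downstream of the GENCODE gene start at 191218039. The core of the cAMP response element, TGACG, was in 4 of 7 (Fos, Fosb, Junb and Atf3) and in 15.7% of all 32851 windows of that length. The GC box GGGCGG was in 6 of 7 against 31.0%, CCAAT in 4 of 7 against 29.3%, and TATAAA in 1 of 7, Fos, against 10.0%. The AP-1 site TGACTCA (3.7% of all windows) and the CArG box of the serum response factor (1.2%) were in none of these 7 windows. Only exact matches were sought, so a near match such as tgacatca in the Jun window is not marked. Sites farther upstream and the promoter of Egr1 were not searched. The windows of 4 genes are shown, Fos and Jun as the core of AP-1, Atf3 for the TGACG match beside that RefSeq start and Klf6 because its level changed. Capitals mark matches of the 6 motifs on either strand, and neighbouring GC boxes of Atf3 overlap.
Fos, chr12:85473690-85473889, + strand: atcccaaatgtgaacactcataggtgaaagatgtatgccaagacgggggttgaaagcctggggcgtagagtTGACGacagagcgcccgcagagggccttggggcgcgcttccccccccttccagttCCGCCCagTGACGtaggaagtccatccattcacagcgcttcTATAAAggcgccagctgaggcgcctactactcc
Jun, chr4:95052223-95052422, - strand: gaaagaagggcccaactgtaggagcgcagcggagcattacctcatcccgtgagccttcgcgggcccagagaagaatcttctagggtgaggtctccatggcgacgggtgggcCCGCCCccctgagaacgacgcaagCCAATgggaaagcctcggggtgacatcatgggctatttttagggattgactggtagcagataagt
Atf3, chr1:191183334-191183533, - strand: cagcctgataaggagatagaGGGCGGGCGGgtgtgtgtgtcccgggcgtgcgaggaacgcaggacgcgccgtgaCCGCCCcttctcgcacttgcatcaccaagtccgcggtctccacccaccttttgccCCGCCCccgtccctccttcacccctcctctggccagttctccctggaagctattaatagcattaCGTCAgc
Klf6, chr13:5861289-5861488, + strand: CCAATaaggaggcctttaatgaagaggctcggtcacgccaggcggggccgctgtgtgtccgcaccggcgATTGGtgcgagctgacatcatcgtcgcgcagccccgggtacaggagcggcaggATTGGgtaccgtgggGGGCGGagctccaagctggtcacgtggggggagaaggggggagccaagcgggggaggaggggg
In Fos the TGACG matches began 129 and 66 bases before the start and the TATA box 33 bases before it, and in Atf3 the TGACG match began 7 bases before the RefSeq start inside the gene.

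The gene counts of a library summed to 6945498 at the lowest, 11524210 at the median and 15159877 at the highest. The cells carried their labelled identity: all 8 adipocyte markers were expressed, with a summed level of 13034.6 to 15033.8 CPM (counts scaled to library size) in Control, 11215.4 to 13156.1 with IS, 12021.9 to 13759.4 with IS + pNaKtide and 12979.8 to 16101.5 in the other 3 groups. The 6 preadipocyte or fibroblast markers summed to 4445.9 to 5501.6 in Control, 3831.2 to 4757.1 with oxLDL, 3676.7 to 4716.7 with oxLDL + pNaKtide, 3300.1 to 5290.4 with pNaKtide and 3042.3 to 4449.9 in both IS groups. The part of these differences in the results was not tested. The macrophage marker Ptprc had 0 counts in all libraries and Adgre1 had 4, with the 5 macrophage markers at 4.51 to 8.11 CPM in sum, and the 4 endothelial markers summed to at most 0.633 CPM. For each library a GC slope was computed, the change in log2 CPM per 10 percentage points of GC content over genes. It ran from -0.409 to -0.128 in oxLDL, from 0.104 to 0.649 in oxLDL + pNaKtide, from -0.126 to 0.282 in pNaKtide and from -0.191 to -0.042 in IS + pNaKtide. Control replicate 1 (-0.195) stood apart from the other Control libraries (0.02 to 0.331), and IS replicate 4 (0.272) from the other IS libraries (-0.353 to -0.195). In the same way pNaKtide replicate 3 (-0.126) lay below its group (0.223 to 0.282) and oxLDL + pNaKtide replicate 4 (0.649) above its own (0.104 to 0.354). The main changes with oxLDL and with IS are also given without Control replicate 1 and IS replicate 4. These libraries were picked out by their slopes in the same data. Leaving them out widens the gap in slope between Control and the groups with an oxidant alone. Larger changes and smaller p-values in those fits are therefore no separate evidence for a change. In bulk RNA, fewer cells of a kind and less RNA per cell cannot be told apart.

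On GRCm38, Fos lies at 12:85473890-85477273, Jun at 4:95049034-95052222, Klf6 at 13:5861482-5870394 and Atf3 at 1:191170296-191218039, while Jund (8:70698949-70700616), Ier2 (8:84661331-84662852) and Junb (8:84974484-84978718) share a chromosome. The levels of the genes differed widely in Control cells. Per length, in the authors' FPKM (fragments scaled to gene length and library depth), Ier2, a nuclear immediate early protein, was highest at 36.78 ± 8.99 (SD, n = 5), followed by Jund at 21.986 ± 4.84, Egr1 at 13.393 ± 1.156, Jun at 9.991 ± 0.92 and Junb at 9.517 ± 2.18. Klf6, a Krüppel-like zinc finger factor, stood at 6.851 ± 1.75, Atf3, a stress-induced factor of the ATF/CREB family, at 5.337 ± 0.954 and Ier3, an immediate early regulator of cell survival, at 4.974 ± 0.837. Fos (1.477 ± 0.338) and Fosb (0.139 ± 0.039) were far below. Jun and Junb did not differ beyond their spread, nor did Klf6, Atf3 and Ier3 among themselves. The raw counts per library ran from 18 to 62 for Fos and from 2 to 20 for Fosb, against 318 to 959 for Egr1, so that changes of Fosb were the least detectable.

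**Figure D1:**
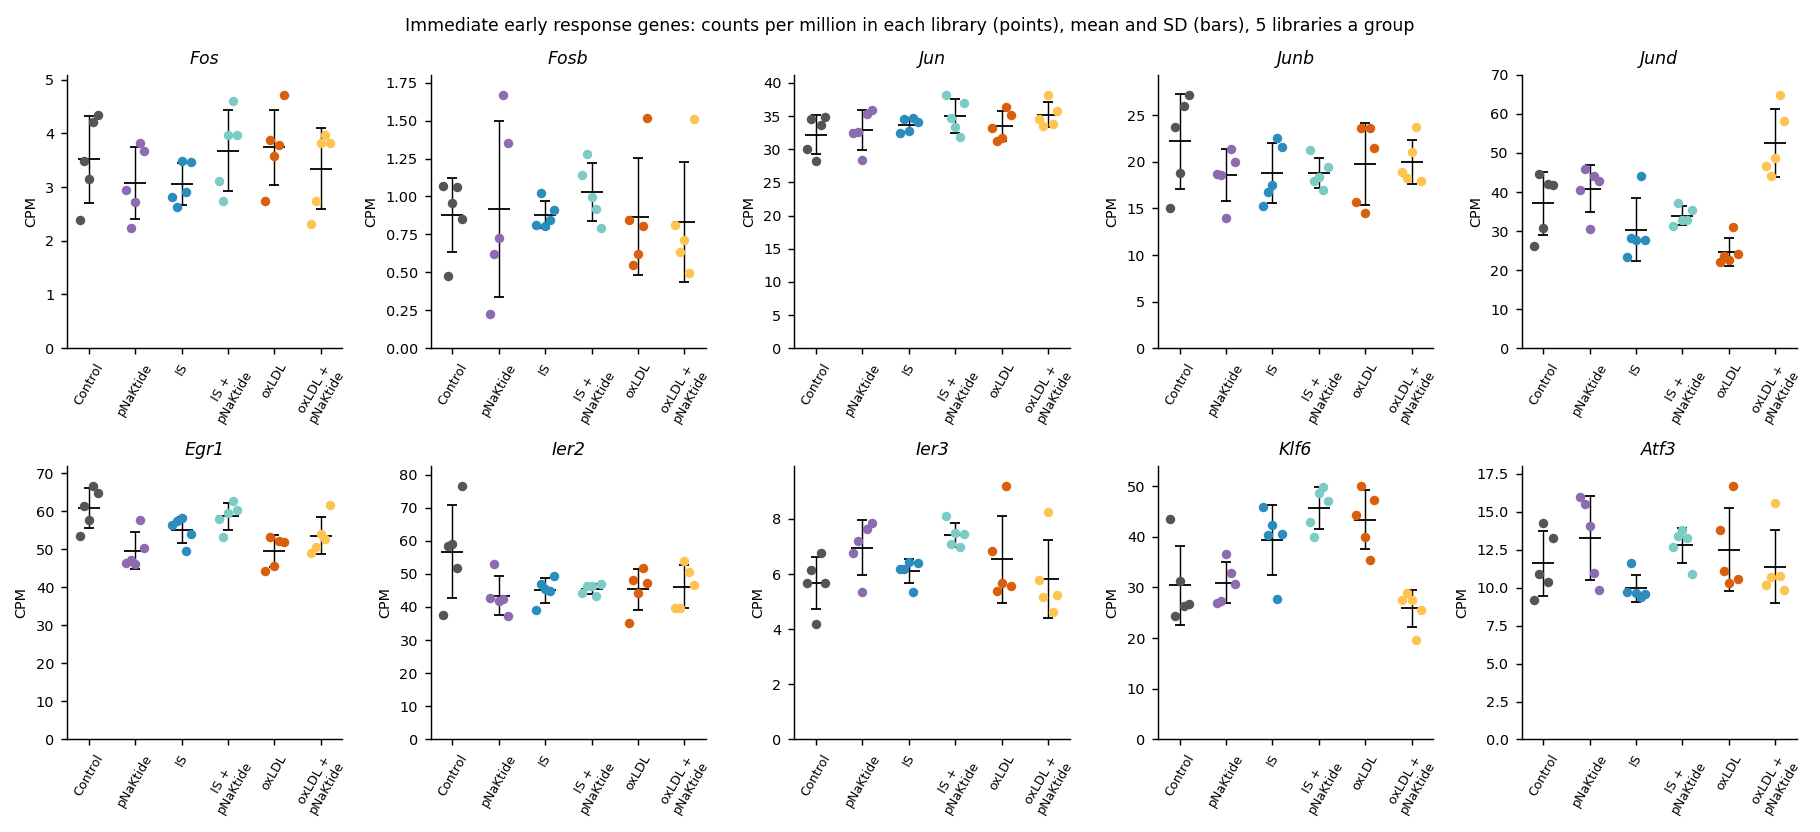
CPM after TMM scaling of the 10 genes (vertical axes, each from 0) in the 6 groups; points are libraries, bars the mean ± SD of 5. Jund was lowest with oxLDL (22.0 to 31.0) and highest with oxLDL + pNaKtide (44.1 to 64.9), Klf6 was lowest with oxLDL + pNaKtide (19.7 to 29.0) and highest by mean with IS + pNaKtide (40.0 to 49.8), and Jun stayed between 28.2 and 38.2 in all libraries.

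Over the 6 groups together, 3 of 10 genes differed, Jund (adjusted p = 6.41e-05), Klf6 (adjusted p = 0.000105) and Egr1 (adjusted p = 0.0137), by edgeR's quasi-likelihood test with Benjamini-Hochberg adjustment over all genes and a threshold of 0.1. Of all genes tested 45.1% passed the same test. The other 7 had adjusted p-values up to 0.982. When a smooth trend on GC content and gene length was fitted per library and taken out of the counts, 8 of 10 passed, all but Fos and Fosb, against 36.0% of all genes.

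Jund, the AP-1 subunit held to be the most constant of the Jun proteins, gave the largest change of the 10. Its level in oxLDL libraries 1 to 5 was 22.0, 23.5, 22.7, 31.0 and 24.1 CPM, and in Control libraries 26.2, 44.7, 30.8, 42.0 and 41.9 CPM. The groups overlapped through Control replicates 1 and 3, which lay at or below the highest oxLDL library. With oxLDL the gene fell by 0.59 on the log2 scale (SE 0.15, 0.67 of Control, edgeR adjusted p = 0.00957). Without the 2 libraries that stood apart, a choice made from the slopes in these data, the log2 change was -0.69 (edgeR adjusted p = 4.49e-05). In oxLDL + pNaKtide libraries the level was 46.7, 44.1, 48.8, 64.9 and 58.3 CPM, each above every oxLDL library. Relative to oxLDL this was a log2 change of 1.09 (SE 0.15, 2.12-fold, edgeR adjusted p = 1.03e-05). Without oxLDL + pNaKtide replicate 4 the change of Jund from oxLDL was 1.01 (edgeR adjusted p = 5e-05). It stood also above Control, by 0.50 (SE 0.15, edgeR adjusted p = 0.0609), a call lost on leaving out any of 4 libraries, Control replicates 1 or 3 or oxLDL + pNaKtide replicates 4 or 5 (adjusted p up to 0.171).

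Klf6, which is known to repress the preadipocyte gene Dlk1, changed in the opposite sense. Its level was 44.2, 50.0, 39.9, 35.5 and 47.3 CPM with oxLDL and 43.5, 24.3, 31.3, 26.3 and 26.8 CPM in Control, where replicate 1 alone reached the oxLDL range. The log2 change with oxLDL was 0.51 (SE 0.14, 1.43-fold, edgeR adjusted p = 0.0109), and for Klf6 without Control replicate 1 and IS replicate 4 it was 0.68 (edgeR adjusted p = 2.05e-05). With oxLDL + pNaKtide the level was 27.6, 29.0, 27.5, 19.7 and 25.6 CPM, below every oxLDL library. The log2 change relative to oxLDL was -0.74 (SE 0.14, 0.60 of oxLDL, edgeR adjusted p = 0.000115), and for Klf6 without oxLDL + pNaKtide replicate 4 it was -0.65 (edgeR adjusted p = 0.000896). With IS + pNaKtide it was 42.9, 40.0, 48.6, 49.8 and 47.0 CPM, a log2 change of 0.58 from Control (SE 0.14, edgeR adjusted p = 0.0741). That call was lost without any one of 9 of the 10 libraries (adjusted p up to 0.303), the exception being Control replicate 1, without which the adjusted p was 0.00277.

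The levels of both genes followed the GC slope of the library. Over the 30 libraries Pearson's r of log2 CPM with the slope was 0.94 for Jund and -0.93 for Klf6 (Spearman's rho 0.90 and -0.88), 0.47 for Junb, and between -0.15 and 0.32 for the other 7. The 30 points share 6 groups whose slopes differ, and these values are a description. With the trend over GC content and length taken out, Jund still fell with oxLDL (log2 change -0.24, SE 0.07, edgeR adjusted p = 0.0222) and still rose with oxLDL + pNaKtide relative to oxLDL (0.46, edgeR adjusted p = 3.43e-06). Klf6 then stood at 0.13 with oxLDL (edgeR adjusted p = 0.239) and fell by 0.20 on the log2 scale with oxLDL + pNaKtide relative to oxLDL (edgeR adjusted p = 0.0401). The SD of Jund within groups went from 0.25 to 0.08 log2 units and that of Klf6 from 0.23 to 0.11. A change of a gene with a given GC content and a trend of the library over GC content cannot be told apart where the slopes differ between groups, as they do here.

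**Figure D2:**
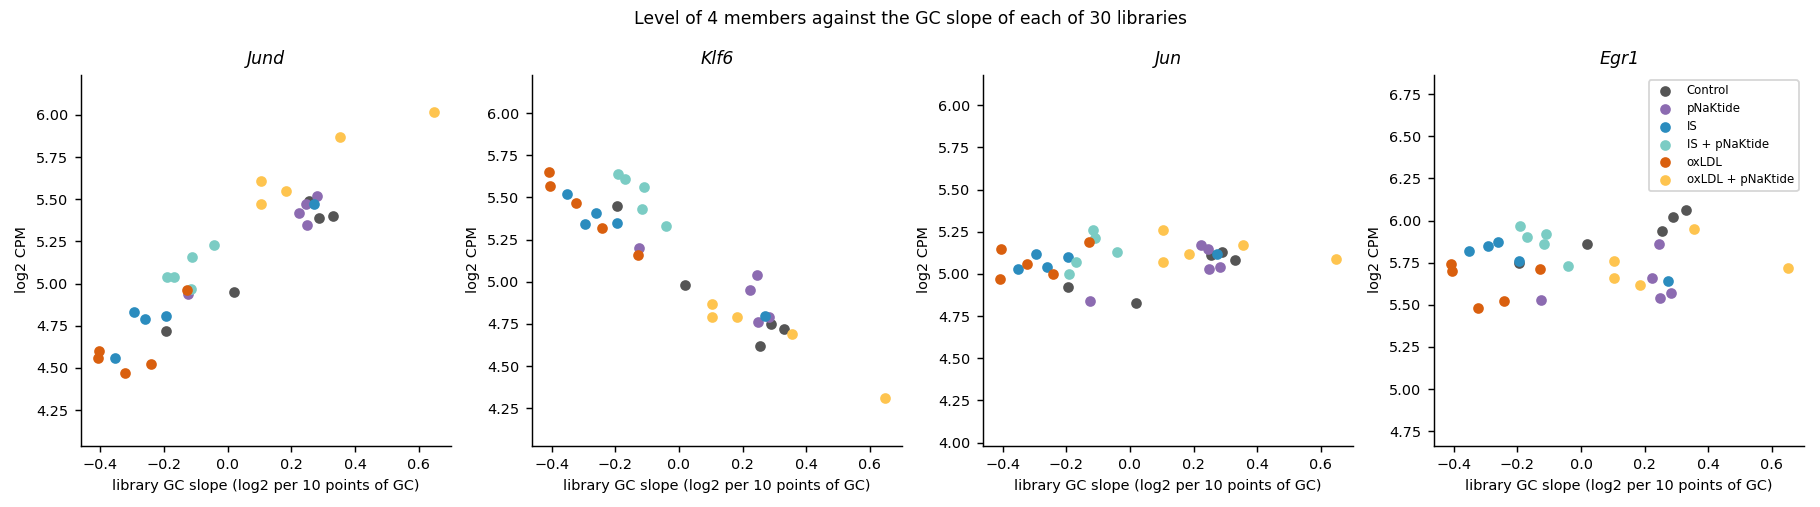
log2 CPM of Jund, Klf6, Jun and Egr1 (vertical axes, each 2.2 log2 units high) against the GC slope of each library (horizontal axis, log2 per 10 points of GC), with 1 point per library coloured by group. Jund rises (r = 0.94) and Klf6 falls (r = -0.93) along the slope, while Jun and Egr1 (r = 0.22 and 0.12) do not follow it as closely.

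Egr1, the serum-response zinc finger factor, passed as lower with oxLDL under TMM scaling, without overlap between the groups. Control libraries 1 to 5 held 53.5, 61.3, 57.8, 66.6 and 64.7 CPM, and oxLDL libraries 44.4, 53.3, 45.6, 52.3 and 52.0. Every oxLDL library lay below every Control library, by a gap of less than 1 CPM between the nearest. The log2 change was -0.29 (SE 0.08, edgeR adjusted p = 0.0127), but -0.16 when scaled by library size alone (edgeR adjusted p = 0.174) and -0.06 with the GC and length trend taken out (edgeR adjusted p = 0.643), so that the call rested on the scaling. Without Control replicate 1 and IS replicate 4 it was -0.34 (edgeR adjusted p = 0.00114). With pNaKtide alone the level was 46.5, 47.3, 46.2, 57.7 and 50.2 CPM, and only replicate 4 lay within the Control range. That log2 change was also -0.29 (SE 0.08) but had an edgeR adjusted p = 0.515, where 0.00497% of all genes were called. With oxLDL + pNaKtide it was 53.6 ± 4.91 CPM and with IS + pNaKtide 58.7 ± 3.59 CPM (SD, n = 5).

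Ier2 completed the calls with oxLDL. Its Control libraries spread widely, with 37.7, 58.4, 58.9, 51.8 and 76.5 CPM, against 35.1, 48.1, 44.2, 51.8 and 47.3 with oxLDL, and the groups overlapped. The log2 change was -0.32 (SE 0.13, edgeR adjusted p = 0.0555), and 0.05 with the GC and length trend out (edgeR adjusted p = 0.806), so that its sign depended on that trend, and -0.19 by library size alone (edgeR adjusted p = 0.261). Without Control replicate 1 and IS replicate 4 it was -0.44 (edgeR adjusted p = 0.00177). The call was lost without Control replicate 2, Control replicate 5 or oxLDL replicate 1 (log2 change -0.19 at the least, adjusted p up to 0.273). Ier2 lay near 45 CPM in all treated groups, between 43.4 ± 5.83 with pNaKtide and 46.1 ± 6.46 with oxLDL + pNaKtide, and at 56.7 ± 14 in Control (SD, n = 5).

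With oxLDL, then, 4 of 10 genes passed the test, 1 higher and 3 lower, where 18.1% of all genes were called higher and 18% lower, and scaling by library size alone gave 4963 higher and 2276 lower in place of 3637 and 3622. Only Egr1 had groups without overlap, where 8.35% of all genes had them. The remaining 6 lay between log2 changes of -0.15 (Junb) and 0.20 (Ier3), and the median of the 10 was 0.03 against 0.04 over all genes. Fos, the inducible AP-1 subunit, was at 3.74 ± 0.704 CPM with oxLDL and 3.52 ± 0.809 in Control (SD, n = 5), a log2 change of 0.10 with an interval of 2 SE from -0.26 to 0.47. Jun, its partner, was at 33.5 ± 2.19 against 32.2 ± 2.94 CPM, with an interval from -0.10 to 0.21. For Fosb the interval ran from -0.65 to 0.68. With the GC and length trend out, 3 passed, Jund lower and Jun (0.28, adjusted p = 0.0166) and Ier3 (0.51, adjusted p = 0.036) higher by edgeR, against 8.48% of all genes called higher and 11.3% lower.

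When pNaKtide was added to oxLDL, 2 of 10 passed relative to oxLDL alone, Jund higher and Klf6 lower, where 22.1% of all genes were called higher and 26.1% lower (4458 and 5264 genes, and 2696 and 7680 by library size alone). The same 2 were the members whose groups did not overlap, where 28.4% of all genes had no overlap. Ier2 was at 46.1 ± 6.46 CPM against 45.3 ± 6.3 with oxLDL, and Fos at 3.34 ± 0.753 against 3.74 ± 0.704 (SD, n = 5). With the trend out 7 passed by edgeR, Jund higher and 6 lower, where 18.9% of all genes were called higher and 17.9% lower. Those lower by edgeR were Ier3 (-0.57, adjusted p = 0.00685), Ier2 (-0.49, adjusted p = 0.000928), Junb (-0.45, adjusted p = 0.00124), Atf3 (-0.31, adjusted p = 0.0779), Klf6 (-0.20, adjusted p = 0.0401) and Jun (-0.17, adjusted p = 0.0607). Of these Jun, Junb and Ier2 had log2 changes of 0.07, 0.00 and 0.02 before the trend was taken out. Against Control, the oxLDL + pNaKtide group held 1 call, Jund, where 5.2% of all genes were called, and with the trend out 2 by edgeR, Jund (0.22, adjusted p = 0.0316) and Ier2 (-0.44, adjusted p = 0.0143), against 9.42% of all genes.

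The change with pNaKtide differed with and without oxLDL for 3 genes when the difference itself was tested by edgeR. By edgeR it was 0.95 for Jund (SE 0.21, adjusted p = 0.0188), -0.76 for Klf6 (SE 0.20, adjusted p = 0.0242) and 0.41 for Egr1 (SE 0.12, adjusted p = 0.0296), where 12.8% of all genes were called higher and 11.8% lower. With the trend out in edgeR, Jund (0.39, adjusted p = 0.0168) and Klf6 (-0.30, adjusted p = 0.0867) passed and Egr1 (0.13, adjusted p = 0.528) did not, where 7.1% of all genes were called higher and 4.47% lower. Ier3 did not pass in the main fit (-0.43, edgeR adjusted p = 0.167) but did with the trend out (-0.77, edgeR adjusted p = 0.0479). These differences use the oxLDL and the Control libraries of the comparisons above and are no separate evidence.

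**Figure D3:**
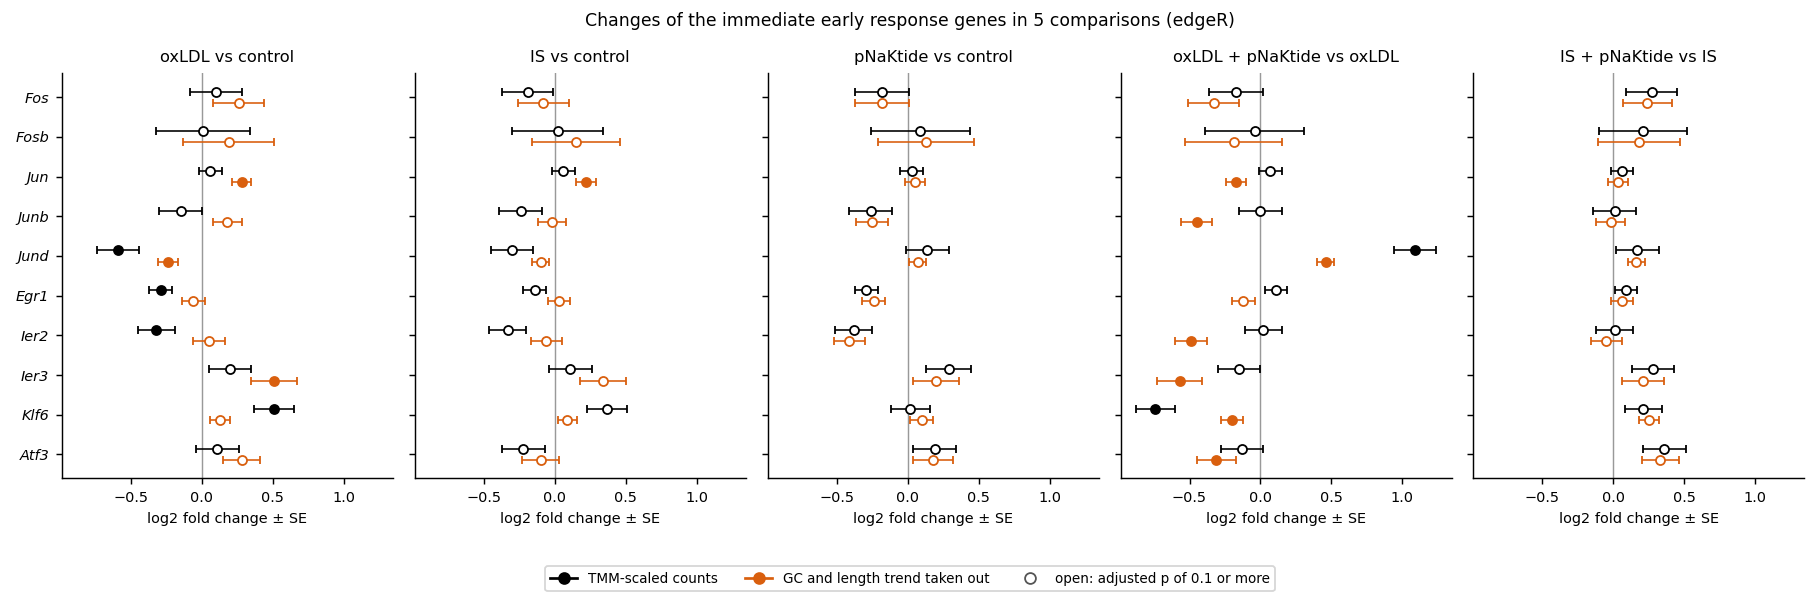
log2 fold change ± SE (horizontal axes) of the 10 genes in 5 comparisons of 5 against 5 libraries, from TMM-scaled counts (black) and with the GC and length trend taken out (orange); filled points have an edgeR adjusted p under 0.1. Jund and Klf6 keep their direction in both oxLDL panels, at smaller size in orange, and with pNaKtide added to oxLDL 2 genes are filled in black and 7 in orange.

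Indoxyl sulphate gave no call among the 10 genes by edgeR (0 of 10, lowest adjusted p = 0.107), where 7.94% of all genes were called, while 2 genes had an unadjusted p under 0.05, Klf6 and Ier2. DESeq2 called 2, where it called 15.7% of all genes, and limma 1 of 9, where it called 13%. With the replicate number as a block edgeR called 3 of 10, Klf6, Ier2 and Jund, where it called 17% of all genes. Klf6 was at 45.8, 40.4, 42.3, 27.7 and 40.6 CPM with IS, of which only replicate 1 lay above every Control library (24.3 to 43.5). Its log2 change was 0.37 (SE 0.14, edgeR adjusted p = 0.107). Jund was at 23.4, 28.2, 27.6, 44.2 and 27.8 CPM with IS, again with replicate 4 apart, near the highest Control library, and its log2 change was -0.30 (SE 0.15, edgeR adjusted p = 0.204). Without Control replicate 1 and IS replicate 4, 4 of 10 passed by edgeR, where 45.8% of all genes did. By edgeR these were Klf6 (0.64, adjusted p = 7.87e-05), Jund (-0.58, adjusted p = 0.00059), Ier2 (-0.44, adjusted p = 0.00309) and Junb (-0.42, adjusted p = 0.0166). With the trend out, Jun was the one gene to pass (0.22, edgeR adjusted p = 0.0937), where 4.13% of all genes did. Leaving out Control replicate 1 alone gave 4 calls and leaving out IS replicate 4 alone gave 3. Jund and Klf6 move with the slope by which these 2 libraries stood apart, so the calls gained by leaving them out are no separate evidence.

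With pNaKtide added to IS, 0 of 10 genes passed by edgeR relative to IS (all adjusted p = 1.0), nor did any by DESeq2 or, of 9 tested, by limma. Of all genes edgeR called 0%, with 564 at an unadjusted p under 0.05, while DESeq2 called 14 genes and limma 3. Atf3 had the one unadjusted p under 0.05 among the 10 (0.0202), at 12.7, 13.4, 13.8, 13.3 and 10.9 CPM against 9.69, 11.6, 9.66, 9.39 and 9.57 with IS (log2 change 0.36, SE 0.15). The groups overlapped through replicate 5 of the first and replicate 2 of the second. Ier3 was at 8.10, 7.10, 7.49, 6.98 and 7.44 CPM against 6.19, 6.17, 6.44, 5.35 and 6.4, with no overlap, which 0.834% of all genes showed. Its log2 change was 0.28 (SE 0.15, edgeR adjusted p = 1.0). Its IS + pNaKtide libraries also lay above every Control library (4.20 to 6.75 CPM), which 3.79% of all genes showed in that comparison, with a log2 change of 0.38 (SE 0.15, edgeR adjusted p = 0.187). Against Control, IS + pNaKtide held 1 call of 10, Klf6, where 0.358% of all genes were called, and with the trend out 3 by edgeR, Klf6 (0.34, adjusted p = 0.0263), Ier3 (0.55, adjusted p = 0.0823) and Jun (0.24, adjusted p = 0.0857), against 2.07% of all genes. The number of all genes called moved widely with the fit, from 72 to 30 by library size alone, 1152 with only these groups fitted and 1486 by DESeq2. Without Control replicate 1 and IS replicate 4 it was 6526 of 19973.

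pNaKtide alone gave 0 of 10 calls by edgeR (lowest adjusted p = 0.515), with 2 at an unadjusted p under 0.05, Egr1 and Ier2, and DESeq2 called Egr1 (adjusted p = 0.0752), where it called 0.283% of all genes, while limma called none of 9. Without pNaKtide replicate 3 edgeR again called 0 of 10, with Egr1 at -0.26 (adjusted p = 0.456). Ier2 was at 42.6, 53.1, 41.7, 42.4 and 37.3 CPM, a log2 change of -0.38 from Control (SE 0.13, edgeR adjusted p = 0.605). The change with pNaKtide did not pass as different with and without IS for any of the 10 (0% of all genes passed, 619 had an unadjusted p under 0.05, DESeq2 called none of the 10 and limma none of the 9 it tested). Egr1 (0.38, SE 0.12) and Ier2 (0.39, SE 0.18) had an unadjusted p under 0.05. Set directly against IS, oxLDL gave 0 of 10 calls by edgeR or DESeq2 and 0 of the 9 that limma tested, which left out Fosb, where edgeR called 0.0149% of all genes and 1 of the 10 had an unadjusted p under 0.05. Atf3 had the smallest unadjusted p (0.0349), at 12.5 ± 2.74 CPM with oxLDL and 9.97 ± 0.892 with IS (SD, n = 5), and the difference of Fos, 0.29, had an interval of 2 SE from -0.07 to 0.65.

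Between libraries of the same group, Jun and Egr1 varied least among the 10. The pooled SD of log2 CPM within groups was 0.10 for Jun and 0.12 for Egr1, above 6.3% and 10.7% of the 12580 genes whose log2 CPM averaged 1 or more. It was 0.29 for Fos (above 77.9%) and 0.49 for Fosb, the genes with the fewest counts, of which Fosb averaged 0.03 log2 CPM and so was not ranked among those genes. The other 6 lay between 0.21 and 0.25. The median of the 10 was 0.24 against 0.21 over those genes, and 0.18 against 0.16 with the trend out. Jund (0.08) and Klf6 (0.11) then varied as little as Jun (0.10) and Egr1 (0.12).

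Some of these genes were high in the same libraries of a group, at a share of pairs near that over all genes. For the 45 pairs, deviations of log2 CPM from the group mean were correlated over the 30 libraries, with 100000 permutations within groups and Benjamini-Hochberg adjustment over the 45 pairs. At a threshold of 0.1, 11 pairs passed, 9 positive and 2 negative. At the size of the smallest that passed (r of 0.49 or more), 9 of the 45 pairs were positive and 3 negative, and of all pairs among the 12580 genes 18.4% were positive and 17.7% negative, so that the number of positive pairs says nothing particular of these genes. Fos and Egr1 gave Pearson's r = 0.75 (Spearman's rho 0.75, permutation p = 2e-05, adjusted p = 0.00045), and 0.70 without the 2 libraries farthest from the median of Fos. Jun and Ier3 gave r = 0.71 (rho 0.67, permutation p = 0.00011, adjusted p = 0.00135), and 0.59 without the 2 farthest libraries. Jund and Klf6 gave r = -0.87 (rho -0.77, permutation p = 1e-05, the smallest these permutations can give, adjusted p = 0.00045).

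With the GC and length trend out, 4 pairs passed the permutation test, all positive, where 8.02% of all pairs of genes had an r of 0.53 or more, the smallest of the 4, and the negative relation of Jund and Klf6 was at r = -0.13. Jun and Ier3 then gave r = 0.80 (rho 0.74, permutation p = 2e-05, adjusted p = 0.0009), Fos and Egr1 r = 0.56 (rho 0.55, permutation p = 0.00122, adjusted p = 0.0274) and Egr1 and Ier2 r = 0.57 (rho 0.54, permutation p = 0.00228, adjusted p = 0.0342). Ier2 and Atf3 gave r = 0.53 (rho 0.53, permutation p = 0.00833, adjusted p = 0.0937). Fos and Junb, at 0.54 before, were at 0.46 (permutation p = 0.0164, adjusted p = 0.147). Without Control replicate 1 and IS replicate 4, 7 pairs passed, 6 positive and 1 negative. With the mean of each replicate number also taken out, a choice made after seeing the data, 8 pairs passed, among them Fos and Egr1 (r = 0.70, permutation p = 0.00051, adjusted p = 0.00765) and Jun and Ier3 (r = 0.79, permutation p = 4e-05, adjusted p = 0.0009). With the trend taken out as well, 3 passed, Jun and Ier3 (r = 0.86), Fos and Egr1 (r = 0.75) and Ier2 and Atf3 (r = 0.67), and Egr1 and Ier2 did not.

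**Figure D4:**
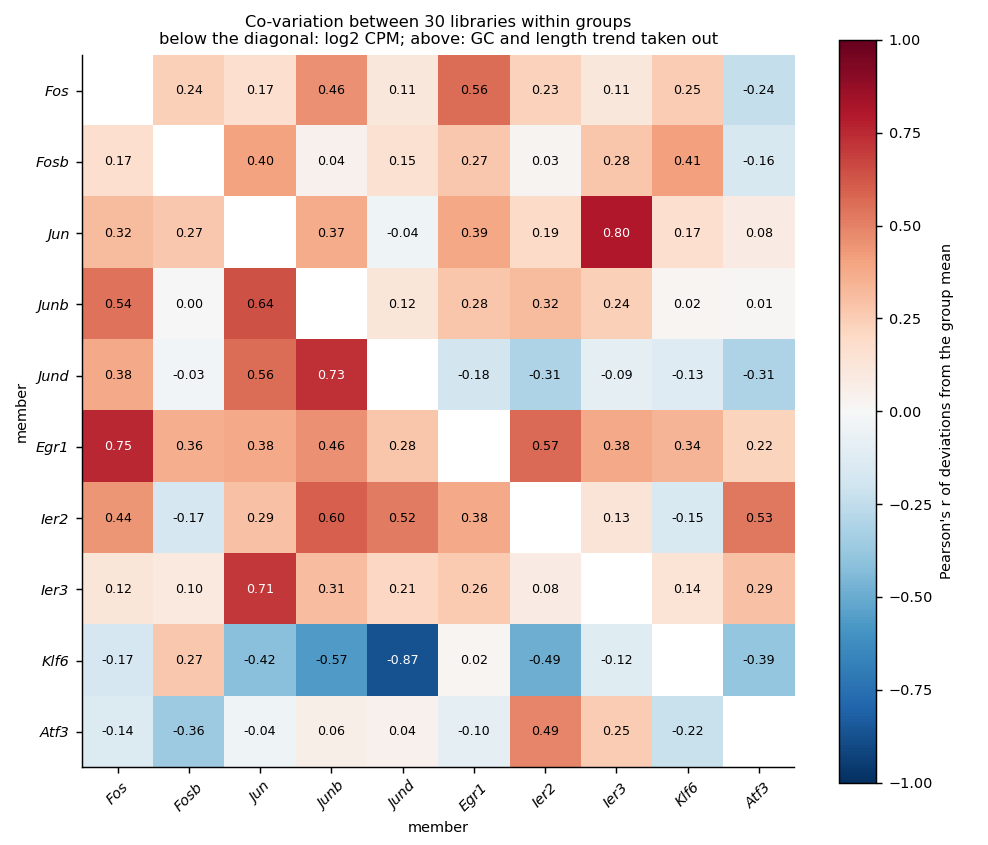
Pearson's r between deviations from the group mean for the 45 pairs of genes over 30 libraries (colour and printed value, from -1 to 1), below the diagonal from log2 CPM and above it with the GC and length trend taken out. Fos with Egr1 (0.75 and 0.56) and Jun with Ier3 (0.71 and 0.80) are positive on both sides of the diagonal, and Jund with Klf6 goes from -0.87 to -0.13.

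Outside the 10, the genes whose level over the 30 libraries was most like that of Fos were Mogs (r = 0.63), Ccdc61 (0.62) and Dpf1 (0.59), among 12580 genes. For Jun they were Ddx27 (r = 0.66), B4galt3 (0.62) and BC052040 (0.60), and for Egr1 Sbno2 (0.70), Llgl2 (0.70) and Tmem131l (0.69). BC052040 and Tmem131l were at -0.30 and 0.04 with the trend out, and Ddx27 and Sbno2 at 0.74 and 0.68. Over the same libraries Fos and Egr1 were at 0.54.

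The genes around the 10 were read from lists of their pathway. Of 59 other immediate early genes tested, 12 were higher and 3 lower with oxLDL (median log2 change 0.07, against 0.04 over all genes), and 6 higher and 19 lower when pNaKtide was added to oxLDL (median -0.16, against -0.09). With the trend out, 19 were higher and 0 lower with oxLDL, and 0 higher and 31 lower with pNaKtide added, and by library size alone 20 and 0, then 2 and 36, beside the shares of all genes given above. Gadd45g, a growth arrest and stress gene, was at 45.6 ± 3.84 CPM with oxLDL against 26.5 ± 7.18 in Control (log2 change 0.78, edgeR adjusted p = 0.021) and at 44.6 ± 14.9 with IS (0.76, edgeR adjusted p = 0.0851), a call that did not pass with the trend out (1.05, edgeR adjusted p = 0.104). For Gadd45g without Control replicate 1 and IS replicate 4 it was 1.06 (edgeR adjusted p = 0.00087). Fosl1, the AP-1 subunit Fra-1, fell to 23.6 ± 1.47 with IS from 38.0 ± 4.83 in Control (-0.68, edgeR adjusted p = 0.00768, -0.45 with the trend out, adjusted p = 0.0153, and -0.77 without those 2 libraries, adjusted p = 3.67e-05). In an edgeR fit of the IS and Control groups only, 0 of 20139 genes were called, so the changes of Fosl1 and Gadd45g with IS did not pass there. With oxLDL the change of Fosl1, -0.33 (edgeR adjusted p = 0.0367), was 0.00 with the trend out. Plk2, a polo-like kinase, was at 9.08 ± 1.70 with oxLDL + pNaKtide against 17.1 ± 3.8 with oxLDL (-0.93, edgeR adjusted p = 0.000138), and Klf10, a TGFβ-inducible factor, at 18.4 ± 3.85 against 33.1 ± 0.706 (-0.84, edgeR adjusted p = 1.48e-05).

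The feedback inhibitors of the MAPK and EGR response, the phosphatases, Sprouty proteins and corepressors that these signals induce against themselves, formed a list of 18. Of these, 6 were higher and 0 lower with oxLDL (median 0.21, and 7 and 0 with the trend out), and 1 was higher and 12 lower when pNaKtide was added (median -0.41, and 0 and 10 with the trend out). The shares of all genes higher and lower were 18.1% and 18% with oxLDL and 22.1% and 26.1% with pNaKtide added, and 8.48% and 11.3%, then 18.9% and 17.9%, with the trend out. Spred1, an inhibitor of Ras signaling, was at 40.4 ± 6.5 CPM with oxLDL against 28.2 ± 6.52 in Control (log2 change 0.52, edgeR adjusted p = 0.0149), and its change was 0.03 with the trend out (adjusted p = 0.844). With pNaKtide added, Dusp6, the phosphatase of ERK, was at 15 ± 3.37 CPM against 25.2 ± 0.991 with oxLDL (log2 change -0.74, edgeR adjusted p = 3.73e-05, and -0.68 with the trend out). Spry4, an inhibitor of receptor tyrosine kinase signaling, was at 53.5 ± 8.58 against 87.1 ± 3.24 (-0.70, edgeR adjusted p = 3.55e-05, and -0.70 with the trend out). Spry4 also lay below Control (80.5 ± 8.64, log2 change -0.59, edgeR adjusted p = 0.0054).

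Of 34 upstream kinases and serum response factors, 9 were higher and 9 lower with oxLDL, and 9 higher and 16 lower with pNaKtide added to it. With the trend out these were 3 and 7, then 10 and 3, and by library size alone 15 and 6, then 4 and 22, so that the balance of this list turned with the scaling. The shares of all genes are those given for the inhibitors. Creb1, the factor that binds the cAMP response element, was at 26.2 ± 3.83 CPM with oxLDL, 15.5 ± 4.73 in Control and 12.6 ± 3.00 with oxLDL + pNaKtide, and its log2 change relative to oxLDL of -1.05 (edgeR adjusted p = 8.54e-05) was -0.16 with the trend out (adjusted p = 0.164). Map2k2, the ERK kinase MEK2, was at 114.4 ± 17.6 with oxLDL and 232.2 ± 44.2 with oxLDL + pNaKtide (1.02, edgeR adjusted p = 4.84e-05, and 0.76 with the trend out, adjusted p = 0.00011). Hras was at 50.8 ± 7.10 and 98.0 ± 20.3 (0.94, edgeR adjusted p = 3.97e-05).

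Of 19 other basic leucine zipper partners of AP-1, 7 were higher and 1 lower with oxLDL, and 2 higher and 9 lower with pNaKtide added (8 and 0, then 3 and 9, with the trend out), beside 18.1% and 18%, then 22.1% and 26.1%, of all genes (8.48% and 11.3%, then 18.9% and 17.9%, with the trend out). Atf5 was at 227.0 ± 30.3 CPM with oxLDL, 318.9 ± 59.2 in Control and 392.5 ± 68.6 with oxLDL + pNaKtide (0.79 relative to oxLDL, edgeR adjusted p = 7.11e-05, and 0.32 with the trend out, adjusted p = 0.000311). With oxLDL its change of -0.49 (edgeR adjusted p = 0.0139) was -0.15 with the trend out (adjusted p = 0.122). Of 22 target genes of AP-1 and EGR1, 4 were higher and 4 lower with oxLDL, and 3 higher and 9 lower with pNaKtide added (0 and 2, then 2 and 10, with the trend out). By library size alone they were 7 and 2, then 2 and 13, so that the balance with oxLDL turned with the scaling, and the shares of all genes are those given for the partners. Tgfb1, the cytokine TGFβ1 and a target of Egr1, was at 42.5 ± 4.77 with oxLDL against 72.1 ± 16.9 in Control (-0.76, edgeR adjusted p = 0.00945) and 87.9 ± 16.9 with oxLDL + pNaKtide (1.04 relative to oxLDL, edgeR adjusted p = 0.000116, and 0.98 with the trend out). Spp1, osteopontin, was at 85.2 ± 15.3 with oxLDL and 37.1 ± 17.5 with oxLDL + pNaKtide (-1.19, edgeR adjusted p = 8.62e-05, and -0.94 with the trend out).

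With IS alone the 5 lists held 4 higher and 4 lower of 59 early genes, 0 and 3 of 34 upstream genes, 1 and 0 of 18 inhibitors, 0 and 1 of 19 partners and no target gene, where 7.94% of all genes were called (897 higher and 702 lower). Some fits called fewer of all genes: 577 of 19041 with thinned counts, 546 of 29409 with at least 1 count and 0 of 20139 with only IS and Control fitted. By library size alone they were 10 and 2, 2 and 2, 1 and 0, 2 and 0, and no target gene, where 2125 of all genes were higher and 416 lower. Without Control replicate 1 and IS replicate 4 they were 14 and 11, 14 and 10, 5 and 1, 7 and 2, and 2 and 8 of 22 target genes, where 4783 of all genes were higher and 4357 lower.

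**Figure D5:**
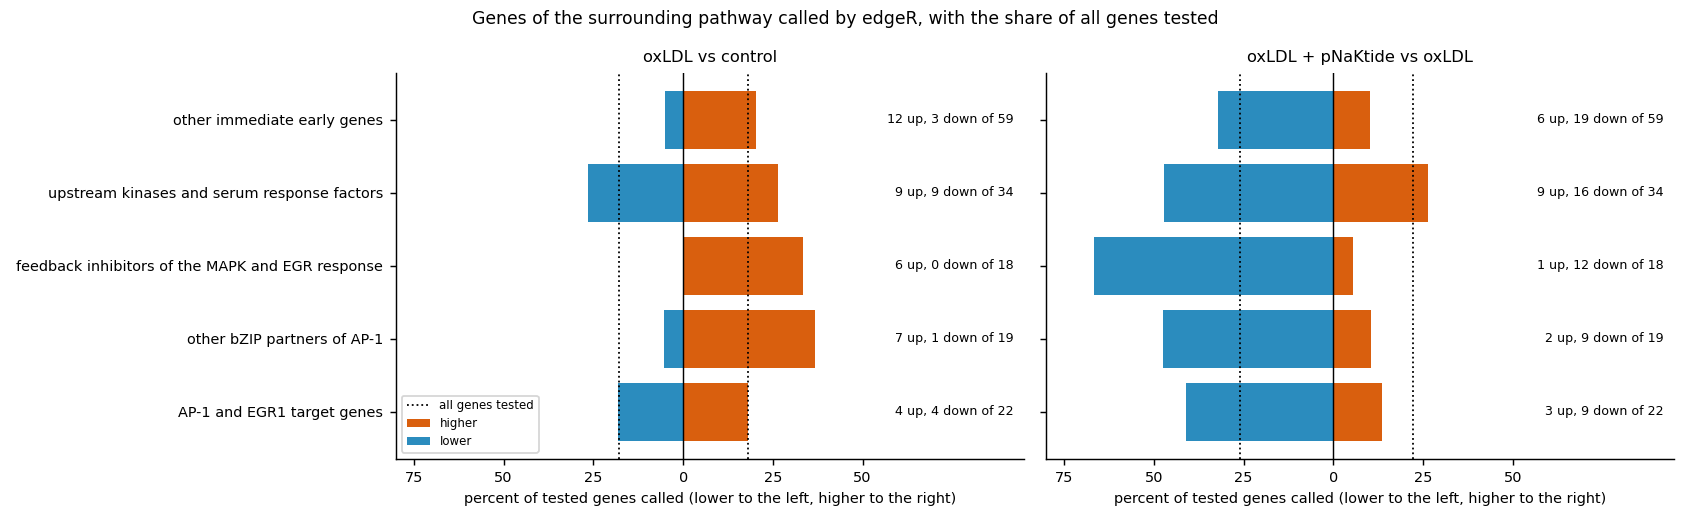
Percent of the tested genes of each list that edgeR called higher (right, orange) or lower (left, blue), with oxLDL against Control and with oxLDL + pNaKtide against oxLDL; dotted lines are the shares of all 20139 genes tested. With pNaKtide added, 12 of 18 feedback inhibitors, 16 of 34 upstream genes, 9 of 19 partners, 9 of 22 targets and 19 of 59 other immediate early genes were lower, where 26.1% of all genes were. Among the 11567 genes with over 14 counts in every library, 4043 were higher and 4261 lower, larger shares than the dotted lines. With oxLDL these were 3230 and 3474.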

How the data were processed

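RNA-seq values of 30 libraries were used. Raw counts per gene were deposited by the authors, who trimmed reads with Trimmomatic 0.38, aligned them to GRCm38 with HISAT2 2.1.0 and counted them per gene. The sources used here do not name the annotation release or strand setting. The authors also deposited FPKM values and a signal table of counts divided by 1 size factor per library (DESeq2 1.20.0 in the submitters' notes). The signal table was used to check the counts and, with FPKM, to give gene lengths. FPKM values were also used for levels per length and for limma.

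Counts were fitted in edgeR 4.0.16 (R 4.3.3) by the robust quasi-likelihood test with TMM scaling, the 6 groups in one model, over 20139 genes with more than 14 counts in all, at a Benjamini-Hochberg adjusted p of 0.1. CPM values are TMM-scaled, and a prior count of 2 entered their log2. The GC and length trend was fitted per library with mgcv 1.9.3, on the GC content of the longest GENCODE transcript of each gene and on gene length. Length was taken, up to a constant, from the ratio of the deposited scaled counts to FPKM. DESeq2 1.42.0, limma 3.58.1 on log2(FPKM + 1), other scalings, filters and left-out libraries were alternatives. The tests were tried on simulated data. The members and gene lists were chosen with earlier results of these data known. Genes named from a list were among the 2 per direction and comparison with the largest log2 change past the threshold, at a mean log2 CPM of at least 1.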

Additional observations from a re-analysis of the deposited data

Results flagged for a closer look

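Among the 60 sets of 5 libraries (10 genes in 6 groups), 5 had a highest or lowest library far from the others by Dixon's test (critical value 0.71), where chance flags about 1 in 20. In Jund these were IS replicate 4 at 44.2 CPM and oxLDL replicate 4 at 31.0 CPM, each the highest of its group. IS replicate 4, with a GC slope of 0.272, was also the lowest library of its group for Ier3, at 5.35 CPM. In Atf3 the highest libraries were IS replicate 2 at 11.6 CPM and oxLDL + pNaKtide replicate 3 at 15.6 CPM.

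The change with pNaKtide differed with and without oxLDL by edgeR's test of the difference for 3 genes, by 0.95 on the log2 scale for Jund (adjusted p = 0.0188), by 0.41 for Egr1 (adjusted p = 0.0296) and by -0.76 for Klf6 (adjusted p = 0.0242). That of Egr1 was 0.13 with the GC and length trend out (edgeR adjusted p = 0.528).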

How the results depend on the processing

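The calls of Jund, Klf6 and Egr1 with oxLDL, and of Jund and Klf6 on adding pNaKtide to oxLDL, held without any single library. For oxLDL against Control, library size alone gave 3 of 10 calls in place of 4, losing Egr1 (-0.16, edgeR adjusted p = 0.174) and Ier2 (-0.19, edgeR adjusted p = 0.261) and adding Jun (0.19, edgeR adjusted p = 0.0913), and the trend out lost Egr1, Ier2 and Klf6 (0.13, edgeR adjusted p = 0.239). The number of the 10 genes that differed over the 6 groups went from 3 to 6 with library size alone and to 8 with the GC and length trend out, and was 3 to 6 on leaving out 1 library. For IS against Control it went from 0 to 1 (library size alone, trend out, limma), 2 (over 14 counts in every library, filterByExpr, DESeq2), 3 (replicate block) and 4 (without Control replicate 1 and IS replicate 4), and was 0 to 4 on leaving out 1 library. For pNaKtide alone DESeq2 gave 1. Adding pNaKtide to oxLDL gave 5 in place of 2 with library size alone and 7 with the trend out. For oxLDL + pNaKtide against Control, 1 became 3 with library size alone, 2 with the trend out or without the 2 libraries, and 0 in a fit of those groups only or at an adjusted p of 0.05, and was 0 to 1 on leaving out 1 library. For IS + pNaKtide against Control, 1 became 3 with the trend out, 4 without the 2 libraries, and 0 with library size alone, with counts thinned to the smallest library or at 0.05, and was 0 to 4 on leaving out 1 library. The difference of the pNaKtide change with oxLDL gave 5 in place of 3 with over 14 counts in every library and with limma. Pairs that varied together went from 11 to 4 with the trend out and to 7 without the 2 libraries, and were 8 with the replicate block and 3 with that block and the trend out. Among changes past the threshold in either fit, the sign reversed with the trend out for Ier2 with oxLDL (0.05) and, on adding pNaKtide, for Jun (-0.17), Junb (-0.45) and Ier2 (-0.49). The cause of these shifts was not tested.

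Library size alone moved the median log2 change of all genes to 0.172 with oxLDL and to -0.302 on adding pNaKtide. Same-numbered libraries of different groups had correlations of -0.66 to 0.79 (median 0.1), 37 of 75 over 0.1, and the best match had the same number in 46 of 150 comparisons, where 30 would have it if every library of a group were as likely. Not every pair was over 0.1 and the labels name no shared batch, so the main fit did not pair libraries by number, which these values do not settle. Fos differed by number, with 2.32 to 3.11 CPM in replicates 1 of the 6 groups and 3.47 to 4.72 in replicates 5. The permutations within groups take libraries of a group as exchangeable, and whether same-numbered libraries shared a batch was not tested. The replicate block gave 3 calls for IS, Klf6, Ier2 and Jund, and took the genes called there from 1599 to 3423 of 20139. Counts of 2 to 20 per library limit what can be seen of Fosb.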
